A study of Mus musculus with 30 samples.

Results

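The 30 mammary tumours of this series were ranked by the RNA level of 9 genes of oxidative phosphorylation, and the 10 highest tumours, called high tumours here, were compared with the 10 lowest, called low tumours, across all other genes. The 9 genes were Ndufa9, Ndufs1 and Ndufv1 of complex I, Sdha and Sdhb of complex II, Uqcrc1 and Uqcrc2 of complex III, Cox5a of complex IV and Atp5b of ATP synthase. All 9 were found in the table. The score of a tumour was the mean over these genes of log2(RPKM + 1), standardised over the 30 tumours, where RPKM is the read number divided by transcript length and by library size. The choice thus used measured RNA values and no label of the animals, and 10 tumours lay between the groups.

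All groups share 1 origin. Each library came from the polyoma middle T antigen (PyMT) induced mammary tumour of 1 animal of a ((MOLF x PyMT) x FVB) backcross, in which the animals differ in the MOLF alleles they inherited. No treatment, age, sex or time distinguishes the animals in the labels, and the sources used here name neither the cells that express the transgene nor how much of a piece was tumour. The RNA was poly-A selected from total RNA. Because whole tumour pieces were measured, fewer cells of a type and less RNA per cell cannot be told apart.

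Oxidative phosphorylation takes place at the mitochondrial inner membrane. Complexes I and II pass electrons from NADH and succinate through ubiquinone to complex III, cytochrome c and complex IV, and ATP synthase uses the proton gradient that complexes I, III and IV build. The tricarboxylic acid (TCA) cycle, fed by pyruvate dehydrogenase and by fatty acid oxidation, supplies the electrons. Most subunits are encoded in the nucleus, imported and assembled with a few made from mitochondrial DNA, so their supply also depends on import, on mitochondrial ribosomes and on transcription regulators such as the PGC-1 coactivators.

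The score fell steadily over the 30 tumours and had no gap at either border. The highest score was 1.72 in animal 3273 and the lowest was -1.60 in animal 4020. At the upper border animal 3540 had 0.181 and was the last high tumour, while animal 4638 had 0.155 and was not included. At the lower border animal 4042 had -0.376 and was the first low tumour, while animal 4038 had -0.358 and was not included. The 9 genes were correlated with each other across the 30 tumours with a mean Pearson r of 0.46, and single pairs ranged from 0.12 to 0.82, so a high tumour was not high in every score gene.

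**Figure D1:**
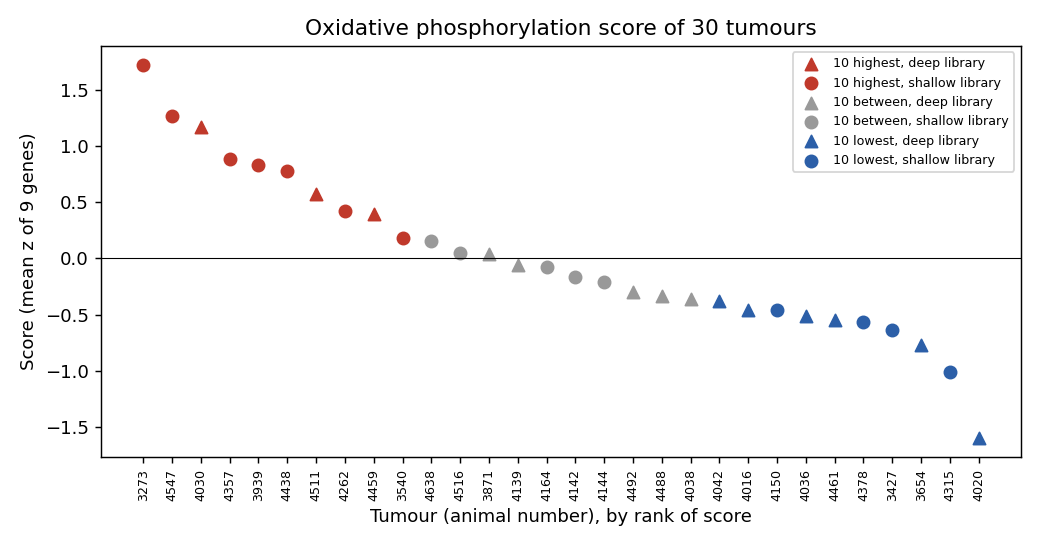
Oxidative phosphorylation score (vertical axis, mean standardised value of 9 genes, no unit) of each of the 30 tumours, named by animal number and ordered by rank; red, the 10 highest; grey, the 10 between; blue, the 10 lowest; triangles, deep libraries; circles, shallow libraries. The points run from 1.72 to -1.60 without a gap at the borders of the groups, and 3 of the high but 6 of the low libraries are deep.

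The values that chose the tumours are described here without a test. Atp5b, the catalytic beta subunit of ATP synthase, was the most abundant of the 9, with 703 RPKM as the lowest value, 816 as the median and 894 as the highest in high tumours, against 515, 627 and 699 in low tumours. Sdha, the flavoprotein of succinate dehydrogenase, had 115, 127 and 154 RPKM in high tumours and 66.2, 105 and 125 in low tumours. Cox5a, a subunit of cytochrome c oxidase, had 134, 172 and 220 RPKM in high tumours and 84.5, 133 and 169 in low tumours. Atp5b thus did not overlap between the groups, while Sdha and Cox5a did. The log2 differences of the 9 genes, high minus low, ran from 0.25 to 0.42, so the contrast is one of modest levels within every score gene and not of presence against absence.

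The libraries differed in depth and insert size. Depth recovered from the RPKM steps fell into 16 shallow libraries of 42.5 to 62 M reads (M, mega) and 14 deep ones of 117 to 197 M, and the high group held 3 deep and 7 shallow libraries, the low group 6 deep and 4 shallow. The mean insert size in the labels was 256 ± 16.3 bases in high and 240 ± 16.3 bases in low libraries (SD, n = 10 each), a difference of 16.2 bases with a two-sided permutation p of 0.0376. Log2 depth differed by -0.34 (permutation p = 0.361). The part of depth and insert size in the results was not tested apart from the within-class and covariate values given beside them.

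Few single genes separated the groups at the threshold. Of 13601 genes outside the score with a mean of at least 1 RPKM, 31 passed at an adjusted p under 0.05 in limma's moderated test of high against low tumours with Benjamini-Hochberg adjustment, which is 0.228% of the genes tested; 22 were higher (0.162%) and 9 lower (0.0662%) in high tumours. At an unadjusted p under 0.05 there were 1782 genes (13.1%), 949 higher (6.98%) and 833 lower (6.12%). A slope of each gene on the score over all 30 tumours, with the same tool, used the tumours between as well and called 278 genes (2.04%), 145 with a positive slope (1.07%) and 133 with a negative one (0.978%). Of the 31 genes called between the groups, 30 also had a slope that passed, each in the same direction. Slopes are given as log2 per SD of the score. Both fits read the same tumours and libraries as the score, so neither is an independent measurement of them.

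Genes of the TCA cycle and pyruvate dehydrogenase rose with the score in 10 of 20 cases. Of 20 genes of this list, 19 had a higher mean of log2 values in high tumours, against 48% of all genes tested, and the median log2 difference was 0.27 against -0.01 over all genes. The slope passed for 10 of the 20 (50%), all positive, where 2.04% of all genes passed; these are 10 of the 278 slope calls. The groups comparison called Pdhx and Cs. The summed RPKM of the 20 genes was 1744, 1857 and 2192 (lowest, median and highest) in high tumours, against 1433, 1629 and 1679 in low tumours. Every high tumour thus lay above every low tumour in the sum. No gene of the list entered the score, but the sum was read from the same libraries that ranked the tumours. For 66 other subunits of complexes I to V and for 33 cytosolic ribosomal protein genes, 0 high tumours had a sum above the highest low tumour, animal 4150. Above the low median lay 10 high tumours for the 66 subunits and 5 for the ribosomal protein genes. The ratio of the median sums, high over low, was 1.14 for the TCA list, 1.13 for the 66 subunits and 1.01 for the ribosomal protein genes. In the TCA sum the tumours between had 1622, 1706 and 1738, below all high tumours.

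Cs encodes citrate synthase, the enzyme that condenses acetyl-CoA with oxaloacetate at the start of the cycle. It had 99.2, 113 and 149 RPKM in high tumours and 74.9, 87.2 and 104 in low tumours. Of the 10 high tumours 9 exceeded the highest low tumour, and the log2 difference was 0.43 (SE 0.09, limma adjusted p = 0.047). Pdhx, the component that binds the E3 enzyme to the pyruvate dehydrogenase core, had 13.8, 15.5 and 17.9 RPKM in high tumours and 10.5, 12.3 and 13.7 in low tumours. The groups did not overlap, which held for 2 of all genes tested (0.0147%), and the log2 difference of Pdhx was 0.34 (SE 0.07, limma adjusted p = 0.046). The other gene without overlap was Traf1, described with the lower genes.

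Idh3a, the catalytic alpha subunit of the NAD-dependent isocitrate dehydrogenase, had 53.8, 64.9 and 84.1 RPKM in high tumours and 36.9, 48.3 and 59.4 in low tumours. Its slope was 0.23 (limma adjusted p = 0.00010), while the difference between groups did not pass (log2 0.45, adjusted p = 0.061). Suclg1, a subunit of succinyl-CoA ligase, had 85.3, 104 and 115 RPKM in high tumours and 70.0, 85.8 and 92.7 in low tumours, with a slope of 0.15 (limma adjusted p = 0.00010). Both genes overlapped between the groups at their edges only: 7 high tumours exceeded the highest low tumour for Idh3a and 9 for Suclg1. Without the 7 tumours whose skeletal muscle score lay above 1 SD, called muscle-rich here, 9 of the 10 slopes of this list that passed did so again. Other passing members included Dlst, Fh1, Mdh2, Dlat and Pdhb, and the 1 member below 0 was Mdh1, whose enzyme works in the cytosol.

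**Figure D2:**
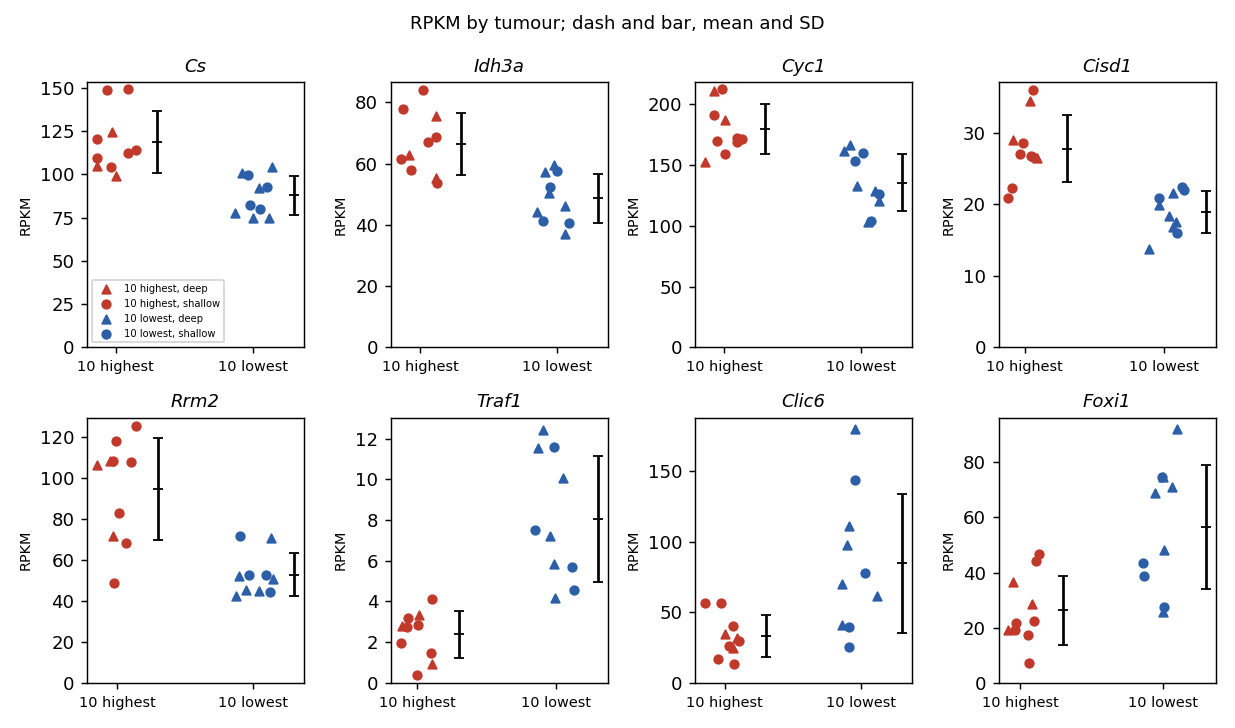
RPKM (vertical axes, linear and from 0) of 8 genes in each of the 10 high tumours (left, red) and the 10 low tumours (right, blue); triangles, deep libraries; circles, shallow libraries; the dash and bar at the side are the mean and SD of the 10. Cs, Idh3a, Cyc1, Cisd1 and Rrm2 sit higher in high tumours with some overlap, Traf1 sits lower without overlap, and Clic6 and Foxi1 sit lower with a wide spread among low tumours.

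Fewer of the other subunits of the complexes passed. Of the 66 subunits of complexes I to V outside the score, 52 had a log2 difference above 0, the median was 0.09, none passed between the groups (10 were higher at an unadjusted p under 0.05) and the slope passed for 9 (13.6%, against 2.04% of all genes). They included Ndufs3, Ndufa10 and Ndufb8 of complex I, Sdhd of complex II, Cyc1 and Uqcrfs1 of complex III, and Atp5a1 and Atp5g3 of ATP synthase. None of the 10 subunits of complex IV outside the score passed, although all 10 had a difference above 0 (median 0.12). Cyc1, the haem-carrying cytochrome c1, had 153, 172 and 212 RPKM in high tumours and 103, 131 and 166 in low tumours, with a slope of 0.20 (limma adjusted p = 0.0011). Of the high tumours 8 exceeded the highest low one. Atp5a1, the alpha subunit of ATP synthase, had 496, 561 and 604 RPKM in high tumours and 327, 442 and 508 in low tumours, with a slope of 0.14 (limma adjusted p = 0.0082). For Atp5a1 9 high tumours lay above the highest low one.

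The subunits that passed were mostly long transcripts. The 49 subunits under 1000 bases had a median log2 difference of 0.07 and 2 slopes that passed, and the 17 of 1000 bases or more had 0.18 and 7, where all genes under 1000 bases had a median of -0.04 and longer ones -0.00. In the deep libraries alone the 66 subunits had a median difference of 0.23, and in the shallow libraries alone -0.03. Animal 4150 had a low score (-0.464) yet the highest summed RPKM of the 66 subunits among all 30 tumours, 17406, against 10041, 10676 and 13729 in high tumours and a median of 9429 in low tumours. Its sum over the 33 cytosolic ribosomal protein genes was also the highest, 48934 against a median of 28265 in high and 27958 in low tumours, and its mean insert size was 227 bases. In the next sum down among low tumours animal 4042 had 12543. With insert size as a covariate the median difference of the 66 subunits was 0.19. Without 1 tumour at a time it ran from 0.055, without animal 4030, to 0.18, without animal 4150, and it was 0.058 without animal 4016.

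**Figure D3:**
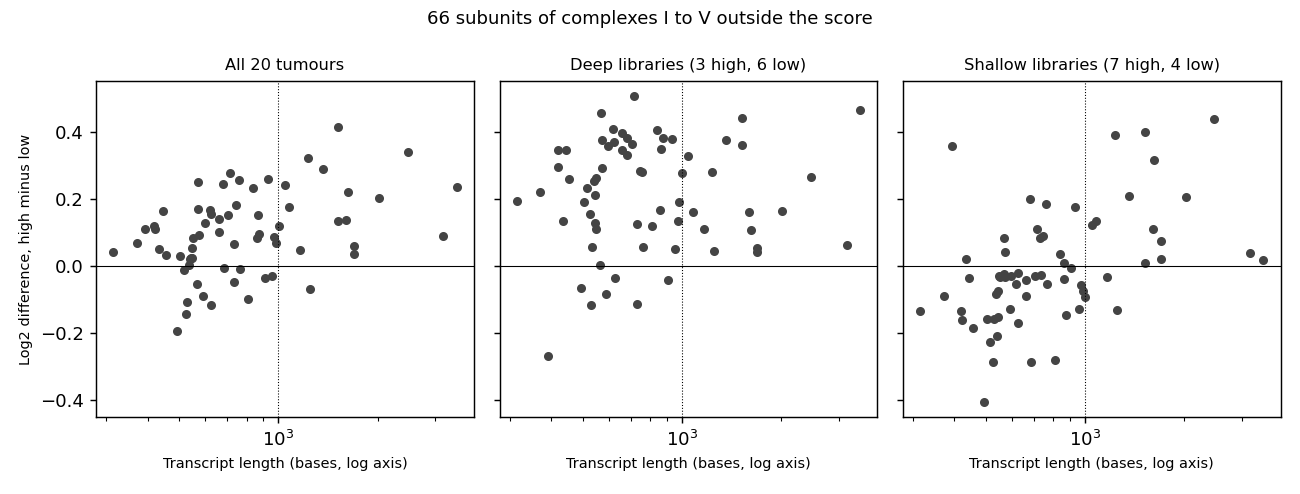
Log2 difference, high minus low (vertical axis, on log2(RPKM + 1)), of each of the 66 subunits of complexes I to V outside the score against the length of its transcript in bases (log axis), in all 20 tumours, in the deep libraries (3 high, 6 low) and in the shallow libraries (7 high, 4 low); the dotted line marks 1000 bases. Most points lie above 0 in deep libraries (median 0.23), while the short transcripts spread below 0 in shallow libraries (median of all 66, -0.03).

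Genes that surround the chain in the organelle followed it to different extents. Over all mitochondrial lists 44 of 329 genes (13.4%) had a positive slope that passed, against 1.07% of all genes, and none a negative one. Of the 329, 251 had a difference above 0, and the median was 0.10, or 0.15 without animal 4150. Of the 44, 32 also passed without the 7 muscle-rich tumours. Among electron carriers, Cycs (cytochrome c) and the ubiquinone synthesis genes Coq5, Coq9 and Pdss1 passed. These were 4 of 11 (36.4%, against 2.04% of all genes), with a list median of 0.22. With the depth class as covariate 0 of the 11 slopes passed, with insert size 4, and without the muscle-rich tumours 2. The median slope of the list was 0.11, and 0.091 with the depth class. In fatty acid oxidation 3 of 18 passed (16.7%, against 2.04% of all genes): Hadhb, a subunit of the trifunctional protein, Acaa2 and Etfb. Without the muscle-rich tumours 1 of the 18 passed, with a median slope of 0.11 beside 0.099 over all 30 tumours. Hadhb had 69.1, 82.7 and 144 RPKM in high tumours and 48.0, 63.0 and 97.2 in low tumours, with a slope of 0.23 (limma adjusted p = 0.0074).

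Some genes of import and exchange rose with the score. Of 32 import and chaperone genes 28 lay above 0 (median 0.22), against 48% of all genes tested. The slope passed for 4 of them (12.5%, against 2.04% of all genes). These were Timm23, the channel of the inner membrane translocase, Timm17a, Tomm40, the channel of the outer membrane, and the chaperonin Hspd1. Of 17 carriers and porins 4 passed by slope (23.5%): the phosphate carrier Slc25a3, the ADP/ATP carriers Slc25a4 and Slc25a5, and the aspartate/glutamate carrier Slc25a12. Slc25a5 had 279, 338 and 413 RPKM in high tumours and 173, 245 and 298 in low tumours, and 7 high tumours exceeded every low one. Slc25a4, the isoform of heart and muscle, had 111, 158 and 380 RPKM in high tumours and 88.4, 114 and 171 in low tumours, and its highest value was in the muscle-rich animal 3273. Without the 7 muscle-rich tumours the slope of Slc25a4 had a limma adjusted p of 0.285, whereas that of Slc25a5 had 0.0012. Carriers of this family resemble each other and have processed copies, so reads can be shared and their values are uncertain to that extent.

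Of the 19 genes of mitochondrial DNA expression 2 had a slope that passed (10.5%), Gfm1 and Tufm, and the list median was 0.07. Gfm1, the mitochondrial elongation factor G, had 23.8, 27 and 29.6 RPKM in high tumours and 14.7, 20.1 and 25.1 in low tumours, with a log2 difference of 0.40 (SE 0.08, limma adjusted p = 0.046). Tufm, the elongation factor Tu, had 60.4, 69.8 and 90.6 RPKM in high tumours and 42.2, 53.1 and 83.5 in low tumours, with a slope of 0.17 (limma adjusted p = 0.015). Of the 74 mitochondrial ribosomal protein genes 5 had a slope that passed (Mrpl12, Mrpl16, Mrpl18, Mrpl46 and Mrps26; 6.76%, against 2.04% of all genes), with a list median of 0.09. The 39 assembly factors had a median of 0.00, with Cox10 and Ecsit passing (5.13%), and no gene of fusion and fission (10 tested) or of mitophagy (9 tested) passed.

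Of the 14 regulators of mitochondrial gene expression tested, none passed between the groups. At an unadjusted limma p under 0.05, 3 were higher and 1 lower, as were 6.98% and 6.12% of all genes. Ppargc1b alone had a slope that passed (7.14% of the list, against 2.04% of all genes). Ppargc1b, the coactivator PGC-1beta, had 1.28, 1.99 and 2.69 RPKM in high tumours and 0.714, 1.31 and 1.97 in low tumours, with a slope of 0.18 (limma adjusted p = 0.029) and a log2 difference that did not pass (0.42, adjusted p = 0.12). Of the high tumours 9 lay above the low median, and without the 7 muscle-rich tumours the slope had an adjusted p of 0.058 in limma. Ppargc1a, the coactivator PGC-1alpha, had 0.369, 1.10 and 1.97 RPKM in high tumours and 0.379, 0.839 and 2.11 in low tumours, and the groups overlapped over nearly their whole range. The nuclear receptor Esrra (median 26 RPKM in high and 22.2 in low tumours), the factor Nrf1 (10.3 and 9.54) and the mitochondrial transcription factor Tfam (11.8 and 11) did not pass in either fit, with limma adjusted p from 0.31 to 0.88. Myc had medians of 34.6 RPKM in high and 29.3 in low tumours and did not pass (adjusted p = 0.64 in limma).

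Short windows around the starts of the genes were searched for the letters of 3 motif types, among them in the 44 mitochondrial genes that had been chosen because their slope on the score passed. RefSeq windows of 250 bases before to 50 after the start (GRCm38.p6) matched 36 of the 44 mitochondrial genes whose slope passed and 10811 of the 13601 genes tested. Both strands were read, and overlaps between motifs were not set apart. The ETS letters CCGGAAGT were in 8 of the 36 (22.2%) and in 8.49% of all matched genes, the ERR letters TCAAGGTCA in 2 (5.56%) and in 0.361%, and the NRF1 letters GCGCATGCG in 1 (2.78%) and in 3.81%. With a final C added, the form searched first, the NRF1 letters were in 0 of the 36 and in 2.15% of all. The lists gave other shares. Of the 56 subunits matched, 7 (12.5%) held the 9 NRF1 letters, 5 (8.93%) the ETS letters and 2 (3.57%) the ERR letters. Of the 18 TCA genes matched, 1 (5.56%) held the NRF1 letters, 1 (5.56%) the ETS letters and 0 the ERR letters, and of the 7 score genes matched 1 (14.3%) held the NRF1 letters and 0 either of the others. These are matches of letters and were not tested. The windows of Gfm1 and Dlst show the ETS letters next to the start, and that of Sdhd, the membrane anchor of complex II, shows the ERR letters (capitals; the reverse complement, where the capitals differ from the letters above). Gfm1 lies at chr3:67429865-67430164 on the + strand, Dlst at chr12:85110583-85110882 on the + strand and Sdhd at chr9:50603800-50604099 on the - strand, and each is written 5′ to 3′ along its gene.
Gfm1: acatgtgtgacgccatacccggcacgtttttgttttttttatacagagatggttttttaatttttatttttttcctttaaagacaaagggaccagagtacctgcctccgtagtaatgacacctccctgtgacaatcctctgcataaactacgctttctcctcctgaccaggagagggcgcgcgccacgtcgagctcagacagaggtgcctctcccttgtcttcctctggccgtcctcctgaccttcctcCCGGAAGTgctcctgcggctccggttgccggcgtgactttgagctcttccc
Dlst: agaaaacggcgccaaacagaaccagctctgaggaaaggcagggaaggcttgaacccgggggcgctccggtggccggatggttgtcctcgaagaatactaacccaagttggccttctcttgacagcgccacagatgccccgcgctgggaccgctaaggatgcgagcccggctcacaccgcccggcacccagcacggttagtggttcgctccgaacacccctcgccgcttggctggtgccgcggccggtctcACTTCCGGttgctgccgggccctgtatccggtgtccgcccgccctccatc
Sdhd: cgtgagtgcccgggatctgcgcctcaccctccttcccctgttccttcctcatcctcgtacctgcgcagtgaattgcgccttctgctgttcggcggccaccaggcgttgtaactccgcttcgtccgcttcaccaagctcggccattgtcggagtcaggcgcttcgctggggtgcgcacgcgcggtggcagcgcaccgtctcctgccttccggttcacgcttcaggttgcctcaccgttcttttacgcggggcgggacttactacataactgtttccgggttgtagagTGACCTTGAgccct

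**Figure D4:**
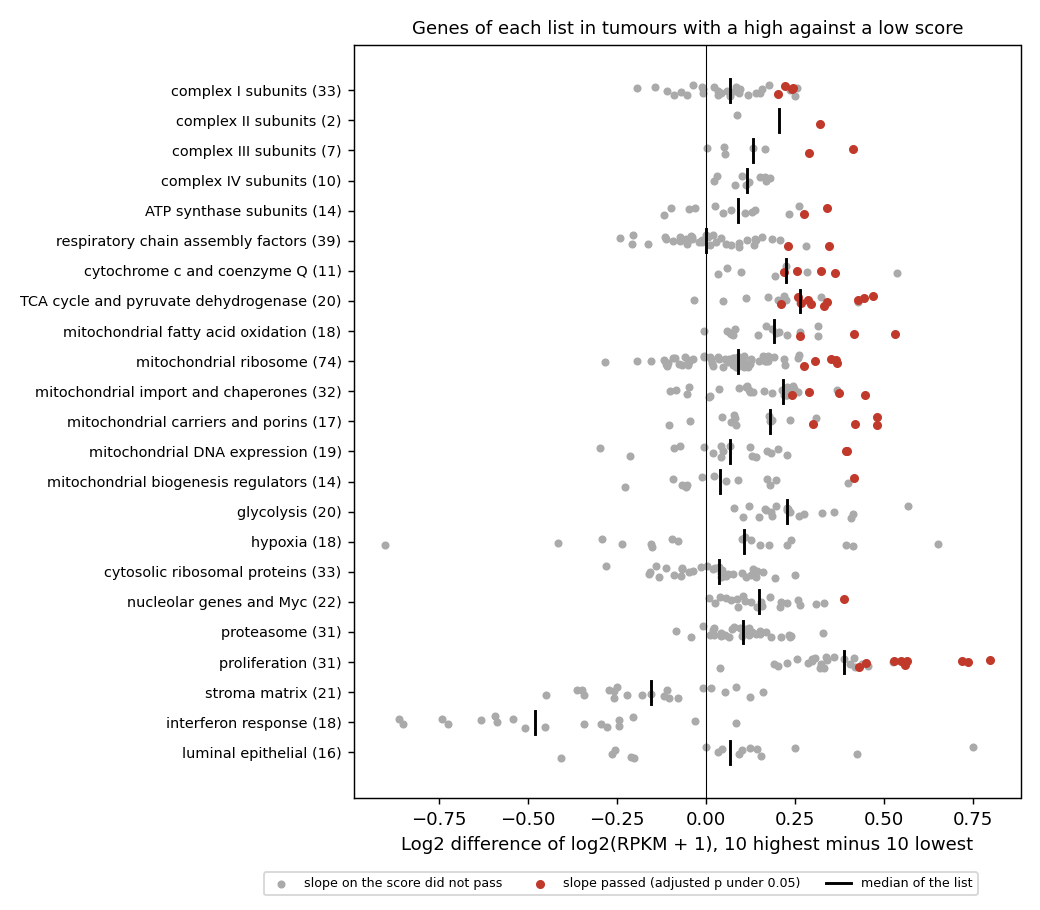
Log2 difference of log2(RPKM + 1), high minus low tumours (horizontal axis), of each gene of 23 of the lists, the mitochondrial, metabolic, growth, stroma, interferon and luminal ones (rows, number of genes in brackets); red, slope on the score passed in limma at an adjusted p under 0.05; grey, did not pass; black line, list median. The TCA list has a median of 0.27 with 10 red points, proliferation 0.39 with 9, and the interferon list -0.48 with none.

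Outside the mitochondrial lists the higher genes included DNA replication and cell cycle genes. All 31 proliferation genes had a difference above 0, against 48% of all genes tested, with a median of 0.39. Of the 31, 24 were higher at an unadjusted limma p under 0.05, as were 6.98% of all genes. The slope passed for 9, all positive, where 1.07% of all genes had a positive slope that passed. Rrm2, Mcm5 and Mcm2 passed between the groups, where 0.162% of all genes were called higher. Rrm2, the small subunit of ribonucleotide reductase, had 48.8, 107 and 125 RPKM in high tumours and 42.7, 51.3 and 71.9 in low tumours, with a log2 difference of 0.80 (SE 0.15, limma adjusted p = 0.046). Of the high tumours 7 exceeded the highest low one. Mcm5, a subunit of the replicative helicase, had 35.5, 53.5 and 62.1 RPKM in high tumours and 17.6, 29.5 and 39.4 in low tumours, with a difference of 0.72 (SE 0.14, adjusted p = 0.046). Mybl2, a transcription factor of the cell cycle, had medians of 9.91 RPKM in high and 5.78 in low tumours and also passed (0.64, adjusted p = 0.046). Ccne1, cyclin E1, followed the score with a slope of 0.35 (limma adjusted p = 0.0048), with medians of 11.9 RPKM in high and 7.63 in low tumours.

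The proliferation score itself, the mean standardised value of the 31 genes, was -0.487, 0.810 and 1.55 in high tumours and -1.93, -0.232 and 0.116 in low tumours. It was above the highest low tumour in 7 of 10 high ones, and 3 high tumours (3273, 3540 and 4357, all muscle-rich) were below 0. Fitted with this score as a covariate, the mitochondrial lists together had a median difference between groups of -0.037, and the 66 subunits -0.038. Import genes had -0.031 and the TCA list 0.31, beside -0.042 over all genes. Positive slopes passed for 35 of 329, 7 of 66, 0 of 32 and 13 of 20 genes, and for 481 of all 13601. The median slopes of these lists were 0.033, 0.063, 0.032 and 0.14, against -0.015 over all genes. Without the covariate they were 0.063, 0.077, 0.087 and 0.13, against -0.0045. With the covariate 1 of the 31 group calls also passed. Of the 278 slope calls 100 also passed.

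**Figure D5:**
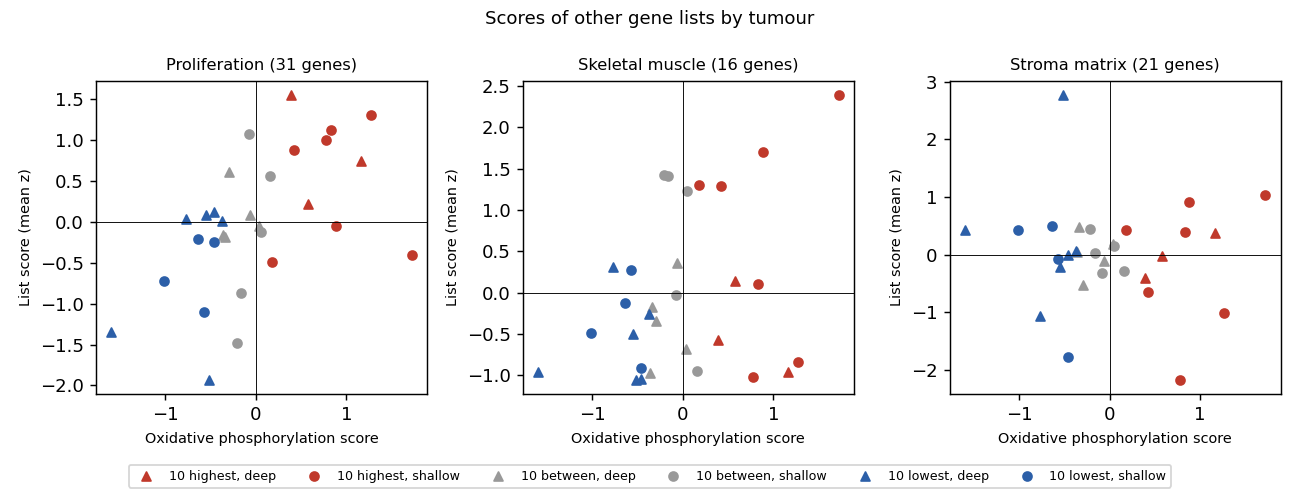
Score of the proliferation, skeletal muscle and stroma matrix lists (vertical axes, mean standardised value) against the oxidative phosphorylation score (horizontal axes) in 30 tumours; red, the 10 highest; grey, the 10 between; blue, the 10 lowest; triangles, deep libraries; circles, shallow ones. Proliferation exceeds the highest low tumour in 7 high tumours, muscle scores above 1 SD occur in 4 high and no low tumours, and stroma scores overlap throughout.

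The other genes called higher had varied functions. Cisd1, an iron-sulfur protein of the outer mitochondrial membrane (mitoNEET), had 20.8, 26.9 and 35.9 RPKM in high tumours and 13.8, 19.1 and 22.4 in low tumours, with a log2 difference of 0.53 (SE 0.10, limma adjusted p = 0.046). Letm1, an ion exchange protein of the inner membrane, had 19.9, 23.5 and 26.5 RPKM in high tumours and 14, 17.8 and 20.6 in low tumours, with 0.42 (SE 0.07, adjusted p = 0.040). Both encode mitochondrial proteins although they were on no mitochondrial list here, and all 10 high tumours lay above the low median for each. Cyp2f2, a cytochrome P450, had 8.98, 16.5 and 25.5 RPKM in high tumours and 3.41, 7.03 and 11.7 in low tumours, and 8 high tumours exceeded every low one. Its difference of 1.04 (SE 0.19, adjusted p = 0.040) was the largest among the genes called higher and named here. Megf6, an EGF repeat protein, had medians of 12.1 and 6.22 RPKM in high and low tumours (1.02, adjusted p = 0.041), and Ggt1, gamma-glutamyltransferase, 40.0 and 24.4 (0.84, adjusted p = 0.046).

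Cdc34, a ubiquitin-conjugating enzyme, had 53.7, 58.5 and 80.1 RPKM in high tumours and 29.6, 40.6 and 62.2 in low tumours (log2 difference 0.57, limma adjusted p = 0.046). Sephs2, which makes the selenium donor for selenoproteins, had medians of 37.1 RPKM in high and 25.9 in low tumours, and Akr1b3, aldose reductase, 31.1 in high and 23 in low tumours. Acot1, an acyl-CoA thioesterase, had medians of 81.5 RPKM in high and 47.7 in low tumours, with the limit that its paralog Acot2 is near-identical and can share reads. Entpd6 and Itpripl1 completed the named set. Psat1, of serine synthesis, had medians of 138 RPKM in high and 82.1 in low tumours and passed by slope only (0.25, limma adjusted p = 0.025).

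The 9 genes called lower in high tumours were Traf1, Nudt4, Btg1, Hmgn3, Laptm4b, Nqo1, Runx2, Rabep1 and Ociad2, and in all 9 every high tumour was below the low median. Traf1, an adaptor of TNF receptor signalling, had 0.387, 2.76 and 4.14 RPKM in high tumours and 4.16, 7.38 and 12.4 in low tumours. The groups did not overlap, and the log2 difference was -1.44 (SE 0.23, limma adjusted p = 0.040). Nudt4, a hydrolase of diphosphoinositol polyphosphates, had 35.7, 43.6 and 55.7 RPKM in high tumours and 52.2, 68.4 and 88.9 in low tumours (-0.62, adjusted p = 0.040). Btg1, an antiproliferative factor, had 17.3, 20.7 and 29.7 RPKM in high tumours and 26.7, 34.7 and 46.7 in low tumours (-0.68, adjusted p = 0.040). Nqo1, the quinone reductase of the oxidative stress response, had 9.77, 21.9 and 27 RPKM in high tumours and 22.1, 35.3 and 68.4 in low tumours (-0.88, adjusted p = 0.046). Nqo1 was the only 1 of 21 antioxidant genes called between the groups, and the list's median was 0.14.

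Hmgn3, a nucleosome-binding protein, had medians of 7.52 RPKM in high and 18 in low tumours, and Laptm4b, a lysosomal membrane protein, 9.58 in high and 19.5 in low tumours. Rabep1, an effector of endosomal Rab proteins, had medians of 10.1 and 16.7 RPKM in high and low tumours. Runx2, a transcription factor best known from bone formation, had 0.815, 1.20 and 1.64 RPKM in high tumours and 1.01, 2.57 and 3.83 in low tumours (-0.65, limma adjusted p = 0.046). Its paralog Runx1 passed by slope (-0.24, limma adjusted p = 0.0075), with medians of 11.6 RPKM in high and 16.9 in low tumours.

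Further genes with a slope below 0 had wide spreads among low tumours. Clic6, an intracellular chloride channel protein, had 13.5, 30.9 and 56.7 RPKM in high tumours and 25.1, 73.6 and 179 in low tumours, with a slope of -0.61 (limma adjusted p = 0.0042). Foxi1, a transcription factor of ion-transporting cells, had 7.23, 22 and 46.6 RPKM in high tumours and 25.8, 58.5 and 91.9 in low tumours, with a slope of -0.51 (adjusted p = 0.0089). All 10 high tumours were below the low median for both, while the differences between groups did not pass (Clic6 -1.23, adjusted p = 0.087; Foxi1 -1.12, adjusted p = 0.084). Slco1a5, an organic anion transporter with close paralogs, had medians of 6.70 RPKM in high and 16.1 in low tumours and a slope of -0.65 (limma adjusted p = 0.0031).

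No glycolysis or hypoxia gene passed in either fit. All 20 glycolysis genes had a difference above 0 with a median of 0.23, which was 0.06 in deep and 0.28 in shallow libraries alone. Between the groups 2 were higher at an unadjusted limma p under 0.05, as were 6.98% of all genes. By slope 9 of the 20 rose at an unadjusted limma p under 0.05, as did 1133 of all 13601 genes. The median slope of the list was 0.13, against -0.0045 over all genes, and it was 0.14 in deep and 0.13 in shallow libraries alone. Ldha, lactate dehydrogenase A, had 473, 709 and 985 RPKM in high tumours and 407, 604 and 1042 in low tumours, and the groups overlapped over their whole range. Pdk1, which inhibits pyruvate dehydrogenase, had medians of 11.7 RPKM in high and 10.1 in low tumours, and Hif1a 32.2 in high and 28.8 in low tumours, with limma adjusted p of 0.54 and 0.41. The 18 hypoxia genes had a median of 0.11, and the 33 cytosolic ribosomal protein genes 0.04.

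Markers of other tissue differed among the high tumours. The 16 skeletal muscle genes, all with a difference above 0, had a median of 2.03, and their summed RPKM was 43.5, 455 and 18340 in high tumours, against 39.1, 130 and 635 in low tumours. Muscle scores above 1 SD were found in 4 high tumours (3273, 3540, 4262 and 4357), in 3 of the tumours between and in none of the low tumours. None of the 16 genes passed, and without those tumours their median was -0.15. The muscle actin Acta1 had 0.814, 102 and 4653 RPKM in high tumours and 0.551, 23.5 and 112 in low tumours. Without the muscle-rich tumours 61 genes passed between the groups and 517 by slope. Adipocyte genes had a median of 0.81 over 11 genes and passed in neither fit, and without the muscle-rich tumours their median was -0.05.

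Epithelial markers were present in every tumour. Krt8, a keratin of luminal cells, had 365, 501 and 613 RPKM in high tumours and 327, 473 and 794 in low tumours, and Krt18 had 373, 473 and 604 in high tumours and 326, 594 and 688 in low tumours. Epcam, an epithelial adhesion protein, had 313, 408 and 474 RPKM in high tumours and 362, 483 and 711 in low tumours, with every high tumour below the low median, but its difference did not pass (-0.26, limma adjusted p = 0.31). Most of the luminal epithelial list went the other way. Of its 16 genes tested 11 had a difference above 0 and 5 below (median 0.07), against 48% of all genes above 0. None of the list passed in either fit.

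The 31 calls between the groups were sensitive to the libraries used. The 31, chosen on the same libraries, had the same sign in deep and in shallow libraries taken alone, where 0 of all genes passed (29 of the 31 in deep and 30 in shallow libraries had an unadjusted p under 0.05). A limma test of whether the difference depended on the depth class called 0 genes (406 at an unadjusted p under 0.05, 2.99%). With 3 deep high and 4 shallow low libraries, those 0 calls do not show that the differences were alike in both classes. With insert size as a covariate 0 genes passed between the groups, the smallest adjusted p being 0.081, and with the depth class 0 genes passed, the smallest being 0.056. All 31 kept an unadjusted p under 0.05 in both fits, and their differences were 0.736 to 1.11 times the original size with insert size (median 0.962) and 0.834 to 1.09 times with the depth class (median 0.992). Of the 278 slope calls 206 and 207 also passed in those fits.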

How the data were processed

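RNA from 30 PyMT-induced mammary tumours was poly-A selected, fragmented and selected by size (per the labels' protocols). RPKM values of 27902 RefSeq transcripts form the table that the authors deposited. The unit was inferred from the values. Processing used CASAVA 1.7.0, per the submitters' processing notes, and the genome build is not given in the sources used here. Transcripts were named with a RefSeq gene table (26490) and GENCODE (154), 1258 unnamed transcripts with 1.94% of the RPKM and 699 small RNA transcripts were left out, and each of 20842 genes was represented by its transcript of highest mean. The table was used as deposited, with Python 3.11.15, numpy 2.4.6, pandas 2.3.3, scipy 1.17.1 and R 4.3.3.

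Differences and slopes are on the log2(RPKM + 1) scale, which understates changes of low genes, for the 13610 genes averaging 1 RPKM or more, from limma 3.58.1 (two-sided, moderated with a trend) with Benjamini-Hochberg adjustment over all of them, the 9 score genes included; counts of calls leave those 9 out. The group fit took the 10 high and 10 low tumours, and the slope all 30. Depth and insert size were compared by permutation with 100000 resamples. Depth was recovered from the steps of low values, and the fitting code was tested on simulated data. Every animal gave 1 library, so p-values rest on differences among animals that include technical ones, and recovered depth gives no counts.

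The members and the 43 lists (733 of 760 symbols tested) were chosen with earlier results of these data known. The text names the 9 score genes, the genes of smallest adjusted p, higher and lower, outside the mitochondrial lists (up to 15 for each fit, a selection for the slope), up to 3 passing members of each list, and a fixed set of regulators and epithelial genes; passing list members beyond 3, such as Suclg1 and Dlst, were named after their values were seen, as was the choice of promoter windows shown. Alternatives were the pseudocount, the filter, normalization, group size, score genes, covariates, depth classes and leaving out each tumour; those on muscle content, scaling, the adjustment and the slope were chosen after seeing the data.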

Additional observations from a re-analysis of the deposited data

Results flagged for a closer look

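In 10 of 158 groups of 10 values examined for the named genes, 1 tumour stood apart from the rest of its group by Dixon's criterion, which chance meets in about 1 in 20 groups. Animal 4150, a low tumour, had 632 RPKM for Atp5g3 and 133 RPKM for Ndufs3, above the other low tumours, whose highest values were 427 and 96.3 RPKM, and 66.2 RPKM for Sdha and 17.6 RPKM for Mcm5, below the other low tumours, whose lowest values were 90.6 and 26.4 RPKM. Animal 4036, also a low tumour, had 126 RPKM for Adipoq and 97.2 RPKM for Hadhb, against at most 7.29 and 69.2 RPKM in the other low tumours. Animal 3273, the tumour with the highest score, had 184 RPKM for Sdhb and 380 RPKM for Slc25a4, against at most 141 and 195 RPKM in the other high tumours. Animal 4030 had 316 RPKM for Ndufb8 and animal 4438 had 29 RPKM for Pdk1, against at most 254 and 12.9 RPKM in the other high tumours.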

How the results depend on the processing

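Of the 31 genes called between the groups (22 higher, 9 lower), the count was 4 (2 and 2) with no filter on low values, 310 (176 and 134) with median ratio scaling and groups recomputed, 65 (49 and 16) for 15 against 15 tumours, 4 (2 and 2) for 5 against 5, 278 (145 and 133) for the slope, 121 (66 and 55) without Atp5b in the score, 0 (0 and 0) with complex I genes only and 58 (26 lower) with the other score genes. It was 0 (0 and 0) with insert size, with depth class, in deep and in shallow libraries, 101 (70 and 31) with muscle, 102 (65 and 37) with stroma and 15 (12 and 3; 1 of them among the 31) with proliferation as covariate, and 61 (51 higher) without muscle-rich tumours. Without 1 tumour at a time it ran from 0 to 105 (0 to 48 higher, 0 to 57 lower): 0 without 4020, 4315, 4459 or 4547, 1 without 3654, 4438 or 4511, 3 without 3939, 4030, 4262 or 4461, 7 without 4036, 18 without 4357, 58 without 3427 or 4150 and 105 without 4378.

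The 278 slope calls (145 higher, 133 lower) became 484 (275 and 209) with median ratio scaling, 176 (94 and 82) without Atp5b, 69 (47 and 22) with complex I genes, 443 (240 lower) with the others, 618 (377 and 241) with muscle, 425 (232 higher) with stroma and 581 (481 higher) with proliferation as covariate, 27 (16 and 11) in deep, 0 (0 and 0) in shallow libraries and 517 (353 higher) without muscle-rich tumours. Without 1 tumour they ran from 60 to 545 (42 to 347 higher, 18 to 218 lower), with 60 without 4020, 132 without 4315, 159 without 4030, 160 without 3939, 424 without 4150 and 545 without 3273.

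With proliferation as covariate the list medians moved to 0.68 for MHC class II, 2.37 for adipocyte, -0.037 for all mitochondrial lists, 0.0016 for antioxidant, 1.83 for brown fat, 0.10 for cytochrome c and coenzyme Q, 0.61 for endothelial, -0.031 for import, -0.18 for nucleolar, -0.019 for proliferation, -0.073 for proteasome and 0.65 for stroma genes. For 5 against 5 tumours they were 0.37 for the TCA list and 0.34 for cytochrome c and coenzyme Q, with complex I genes 0.030 for complex II and 0.049 for fatty acid synthesis, and in deep libraries -0.21 for mitophagy. The insert size difference was 10.4 bases (permutation p = 0.152) for 15 against 15.

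Some genes that did not pass changed sign. Differences were -0.021 for Ppargc1a with 5 against 5, -0.016 with score genes outside complex I and -0.11 in deep libraries. Tfam had -0.024 with genes outside complex I and -0.16 with proliferation, Myc -0.094 with proliferation, and Ldha -0.025 with insert size and -0.16 in deep libraries. Krt8 had -0.11 with proliferation, -0.073 in shallow libraries and -0.019 to 0.123 without 1 tumour at a time, below 0 without 4036 or 4461. Krt18 had 0.11 with complex I genes and 0.0061 in deep libraries. Acta1 had -0.28 with muscle as covariate, Acta1 -0.15 and Ckm -0.096 without muscle-rich tumours, and Adipoq -0.22 in deep libraries. Slopes were -0.10 for Ppargc1a, -0.014 for Ldha and -0.091 for Adipoq in deep libraries, -0.0087 to 0.075 for Ppargc1a without 1 tumour at a time (below 0 without 3273), and -0.015 for Krt8 in shallow libraries. With proliferation they were -0.019 for Nrf1, -0.013 for Tfam and -0.071 for Myc, with muscle -0.24 for Acta1, and without muscle-rich tumours -0.0065 for Ppargc1a, -0.17 for Acta1, -0.046 for Ckm and -0.011 for Adipoq. The causes were not tested. Adjusted over the 13601 genes outside the score alone, 31 genes passed between the groups and 274 by slope. The median of all genes moved by less than 0.1 in every setting. No paired analysis was possible because each animal number occurs once. Recovered depth gives no counts, so the counting error of low genes such as Ppargc1a and Runx2 was not estimated.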

Other observations

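Immune and lipid genes, which the groups were not chosen on, showed differences that did not pass. Beside the counts of signs given here, 48% of all genes tested had a log2 difference above 0. Of 18 interferon response genes 17 had a log2 difference below 0, with a median of -0.48, and none passed in limma. At an unadjusted limma p under 0.05, 3 of the 18 were lower, as were 6.12% of all genes. The interferon median was 0.13 in deep libraries alone and -0.74 in shallow ones, and ran from -0.67 to -0.27 without 1 tumour at a time. All 6 T cell genes tested lay below 0 (median -0.30), as did 3 of 5 B cell genes (median -0.33). Without 1 tumour at a time these medians ran from -0.36 to -0.15 for T cell and from -0.40 to -0.031 for B cell genes, in both lists nearest 0 without animal 4378. The B cell median was 0.027 in deep and -0.62 in shallow libraries. The summed RPKM of the 7 B cell genes measured went the other way in its median. It was 35.1, 51.2 and 68.1 in high tumours, against 26.5, 42.1 and 153 in low tumours. Of 17 cholesterol synthesis genes 16 lay above 0 (median 0.13) and of 13 fatty acid synthesis genes 11 (median 0.42), with none passing in either fit. The fatty acid synthesis median was 0.14 in deep and 0.37 in shallow libraries alone. It was 0.22 with insert size as covariate, 0.22 without the muscle-rich tumours and 0.74 with proliferation as covariate. Of 10 basal and myoepithelial genes 8 lay above 0 (median 0.43), and their summed RPKM was 262, 310.3 and 411 in high tumours, against 141, 200.1 and 337 in low tumours. The milk genes ranged from 2537 to 49573 summed RPKM in high tumours and from 2485 to 54516 in low tumours. Of 22 nucleolar genes all had a difference above 0 (median 0.15), and Rrp12, a ribosome export factor in yeast, was the 1 with a slope that passed (4.55% of the list, against 2.04% of all genes; slope 0.15, limma adjusted p = 0.031).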
